A study of Mus musculus with 4 samples.

Results

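The genes described here are the 3 chains of complement C1q (C1qa, C1qb and C1qc) and 6 other genes of the complement system, namely the components C3, Cfb and Cfp, the anaphylatoxin receptors C3ar1 and C5ar1, and the C1 inhibitor Serping1. They were listed by gene symbol and selected on their log2 levels on these same arrays, where the C1q chains had been seen to differ between the siRNAs, and each was read from its brightest probe set that carries a single gene symbol. Of the 9 listed genes, 8 were found among 19938 named genes. No probe set was named C3 in the annotation used here, so C3 has no value. All levels below are log2 expression values, and because the genes were chosen with these values known, levels and differences are given as a description with no test.

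Mouse dendritic cells were grown from whole bone marrow with GM-CSF at 20 ng/mL, and were electroporated with siRNA on day 10. The 4 conditions were NR4A3 siRNA with LPS, NR4A3 siRNA without stimulation, control siRNA with LPS, and control siRNA without stimulation. LPS, a bacterial cell wall component sensed through TLR4, was given at 100 ng/mL 24 hours after electroporation, and RNA was taken a further 24 hours on. Each condition was measured on 1 Affymetrix Mouse Gene 1.0 ST array, so no value has a replicate check and the number of arrays limits the precision. The labels give the strain as BALB/c in one place and C57BL/6 in another. They mention no sorting of the cultures and do not say whether the arrays came from separate cultures. All cells went through electroporation, the controls included.

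Complement is a cascade of plasma and tissue proteins that tags microbes and dying cells. C1q, assembled from the A, B and C chains encoded by C1qa, C1qb and C1qc, is the recognition part of the first component and starts the classical pathway on antibody and other surfaces. Unlike most complement proteins, which the liver makes, C1q comes mainly from macrophages and dendritic cells, and immature dendritic cells are known to make it and to lower it on maturation. Cfb (factor B) supplies the protease of the alternative pathway convertase, Cfp (properdin) stabilises that convertase, and C3ar1 and C5ar1 bind the small fragments C3a and C5a. Serping1 inhibits the proteases that C1q carries.

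The C1q genes are neighbours on mouse chromosome 4, in the order C1qb, C1qc, C1qa in the RefSeq gene table of GRCm38.p6, with no other gene of that table between them. The promoters of C1qb and C1qc are shown because these chains had the most similar levels over the arrays relative to their own means, as given at the end. Each is the 250 bases before the gene's start, from RefSeq in build GRCm38.p6, minus strand, at chr4:136886201-136886450 for C1qb and chr4:136892915-136893164 for C1qc. Capitals mark GAGGAA or its reverse complement TTCCTC, a form of the site bound by ETS factors such as PU.1, a lineage factor of myeloid cells. Shorter matches, such as GGAA alone, were not searched for and are not marked.
C1qb: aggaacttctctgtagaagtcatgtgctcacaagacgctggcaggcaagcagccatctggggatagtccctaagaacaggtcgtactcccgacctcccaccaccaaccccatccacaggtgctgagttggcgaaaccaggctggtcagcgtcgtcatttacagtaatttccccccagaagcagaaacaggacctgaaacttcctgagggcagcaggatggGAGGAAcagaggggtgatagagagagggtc
C1qc: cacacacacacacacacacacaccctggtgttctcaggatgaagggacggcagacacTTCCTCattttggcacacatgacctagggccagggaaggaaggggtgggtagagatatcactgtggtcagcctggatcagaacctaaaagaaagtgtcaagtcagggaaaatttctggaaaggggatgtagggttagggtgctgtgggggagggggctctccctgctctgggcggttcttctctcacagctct
Both strands were searched for 6 motifs. The first was AAAGGTCA, the NBRE that NR4A receptors bind as monomers. The next were the ETS site above and the AP-1 site TGACTCA. A shortened core of interferon-stimulated response elements was searched as GAAANNGAA. Then came the E-box of helix-loop-helix factors, with the letters CACGTG. The last was the TATA box, with the letters TATAAA. The ETS site GAGGAA lay 30 to 25 bases before the start in C1qb. In C1qc it lay on the opposite strand, 193 to 188 bases before the start. The same letters occur in 23.3% of the 32851 promoter windows of this length in the table. The other 5 motifs had no match in the C1qb and C1qc windows. Over all windows they occur in 1.34% (NBRE), 4.46% (AP-1), 7.13% (interferon-stimulated response element core), 6.02% (E-box) and 12.4% (TATA box). No match overlapped another. Promoters of 6 listed genes were in the table, and among the other 4, C3, Cfp, C3ar1 and C5ar1, matches were found in C3ar1, for the AP-1 site and the TATA box, and in C5ar1, for the interferon-stimulated response element core.

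Facts of the whole set of arrays that bear on these genes are few. Array medians lay between 6.37 and 6.42. The targeted gene Nr4a3 stood at 9.39 with NR4A3 siRNA and LPS, against 11.77 with control siRNA and LPS, and at 7.15 with NR4A3 siRNA without stimulation, against 11.21 with control siRNA. Its relative Nr4a2 was lower as well under LPS, at 8.60 with NR4A3 siRNA against 9.79 with control siRNA, so differences between the siRNAs under LPS cannot be assigned to Nr4a3 alone. Without LPS the log2 difference of Nr4a2 was -0.31. With 1 array per condition, differences between the siRNAs without LPS cannot be assigned to Nr4a3 alone either. A gene entered a comparison when the brighter of its 2 arrays reached 6.66, the middle value of named genes on the 4 arrays together, which is called the filter below. Of the 8 measured complement genes, 7 passed it, and Serping1 lay below it on all arrays.

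All 3 C1q chains were at their highest in unstimulated cells with NR4A3 siRNA and at their lowest in LPS-treated cells with control siRNA. NR4A3 siRNA went with higher C1q levels in both states, and LPS with lower levels under either siRNA. C1qb, the B chain gene, stood at 9.85 with NR4A3 siRNA and LPS, against 7.82 with control siRNA and LPS. Without stimulation C1qb stood at 11.40 with NR4A3 siRNA, against 10.21 with control siRNA. The B chain was thus 4.07-fold higher with NR4A3 siRNA under LPS, which ranked 1st from the highest of 10210 genes, and 2.28-fold higher without LPS, 12th of 10257 genes.

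C1qc, the C chain gene, had levels of 8.94 with NR4A3 siRNA and LPS and 10.67 with NR4A3 siRNA alone, against 7.12 with control siRNA and LPS and 9.45 with control siRNA alone. Its difference between the siRNAs was 3.53-fold under LPS, ranking 4th of 10210 genes, and 2.33-fold without LPS, ranking 10th of 10257. C1qa, the A chain gene, had levels of 7.60 with NR4A3 siRNA and LPS and 9.15 with NR4A3 siRNA alone, against 6.58 with control siRNA and LPS and 8.04 with control siRNA alone. It was 2.02-fold higher with NR4A3 siRNA under LPS (46th of 10210) and 2.17-fold higher without LPS (15th of 10257). The lowest C1qa level lay just below the filter, so the C1qa folds that rest on it are approximate. The chains differed between the siRNAs by similar amounts without LPS (1.12 to 1.22 on the log2 scale), whereas with LPS the log2 difference of C1qa (1.02) was smaller than those of C1qc (1.82) and C1qb (2.03).

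**Figure D1:**
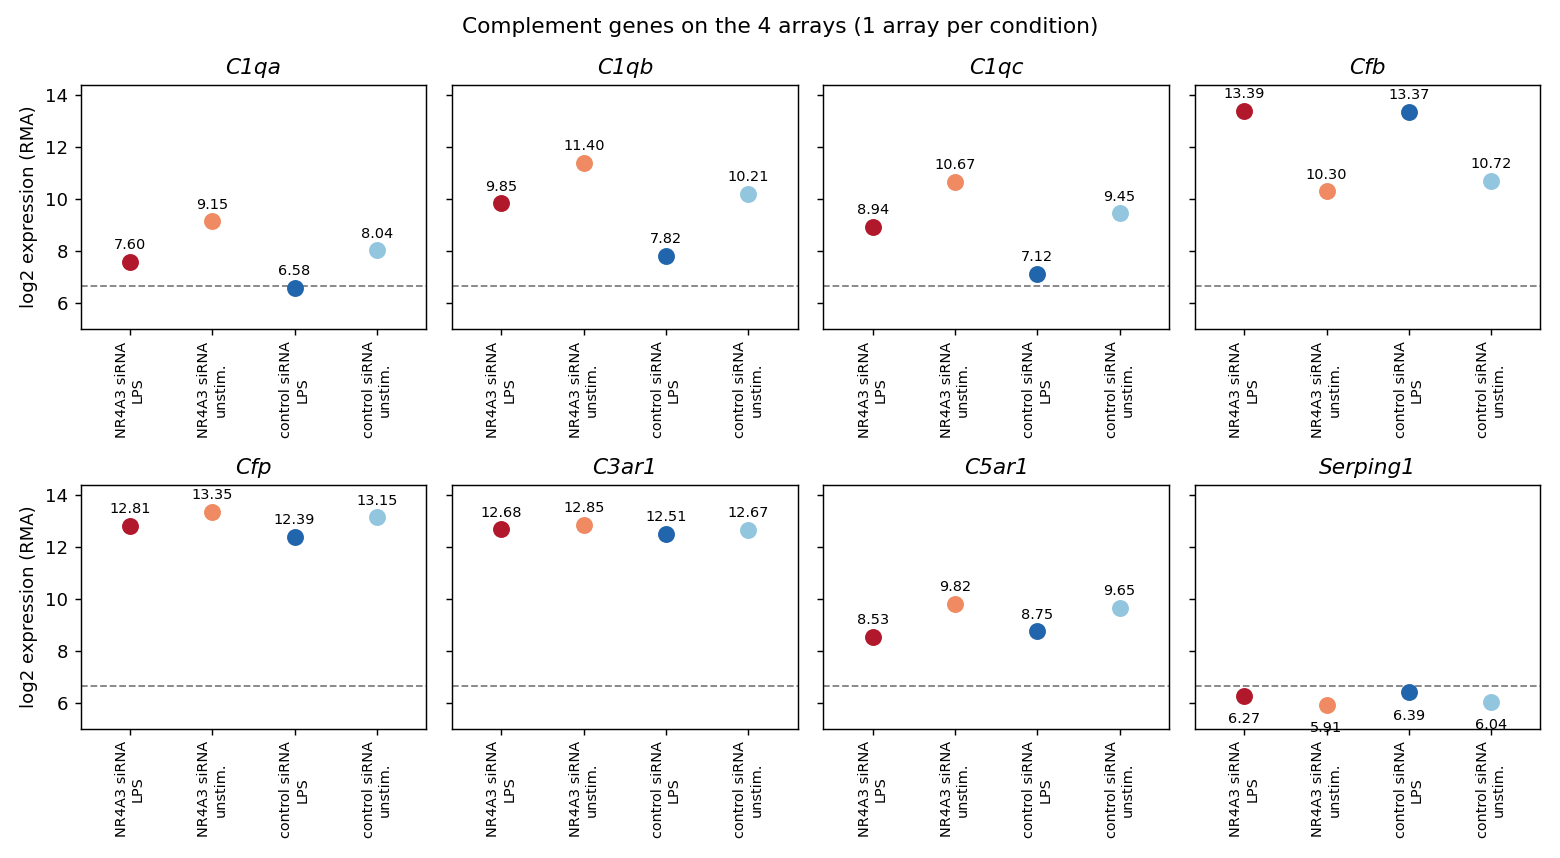
Log2 expression (RMA values, vertical axis) of the 8 measured complement genes on the 4 arrays, 1 point per array and condition, with the dashed line at the filter of 6.66. The C1q chains share 1 order of the arrays, highest with NR4A3 siRNA without stimulation and lowest with control siRNA and LPS, Cfb is high on both LPS arrays, and C3ar1 lies between 12.51 and 12.85.

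In the comparison of the siRNAs under LPS, all 3 C1q chains and 0 of the other 5 measured members were at least 1.5-fold higher with NR4A3 siRNA, a size reached by 3.73% of 10210 genes in that direction. Without LPS the counts were the same, 3 chains and 0 others, against 1.62% of 10257 genes. Since the chains were listed for this contrast, nothing is read from these shares. The median log2 difference of the chains was 1.82 under LPS and 1.19 without, while the medians over all genes past the filter were 0.05 and 0.02. The 4 other members past the filter had medians of 0.095 under LPS and 0.18 without. With Serping1, which lay below the filter, these medians were 0.02 and 0.17. At 2-fold or more, 6 of 10592 genes (0.0566%) were higher with NR4A3 siRNA in both states, and these were the 3 C1q chains, Dnmt3aos, Npepl1 and Snap25.

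LPS went with lower C1q levels under either siRNA. C1qb was 2.94-fold lower with LPS under NR4A3 siRNA, ranking 87th from the lowest of 10353 genes, and 5.25-fold lower under control siRNA, ranking 28th of 10346. C1qc was 3.31-fold lower under NR4A3 siRNA (58th from the lowest) and 5.02-fold lower under control siRNA (33rd). C1qa was 2.94-fold lower under NR4A3 siRNA (88th) and 2.74-fold lower under control siRNA (158th). Levels at least 1.5-fold lower with LPS were found for 6.88% of genes under NR4A3 siRNA and 9.44% under control siRNA, and for 3 of 3 chains in each case. With NR4A3 siRNA and LPS together, the log2 levels minus those with control siRNA alone were -0.37 for C1qb, -0.44 for C1qa and -0.51 for C1qc, so all 3 chains were still lower there.

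The LPS difference of C1qb was smaller under NR4A3 siRNA than under control siRNA, and so was that of C1qc, but not that of C1qa. The LPS difference under NR4A3 siRNA minus that under control siRNA was 0.84 for C1qb, 0.60 for C1qc and -0.10 for C1qa. Over 10592 genes this quantity had a median of 0.05, and its 5th and 95th percentiles were -0.37 and 0.48. C1qb and C1qc therefore lay above the 95th percentile, and C1qa lay within the range. The quantity equals the siRNA difference under LPS minus that without LPS, so it adds no separate measurement. Since the chains were chosen with these levels known, nothing is read from their places in this range. The C1qa level with control siRNA and LPS, 6.58, was the one C1q value below the filter, and the part of its dimness in the C1qa value was not tested. The other members that passed the filter had values of 0.44 (Cfb), 0.22 (Cfp), -0.02 (C3ar1) and -0.39 (C5ar1).

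**Figure D2:**
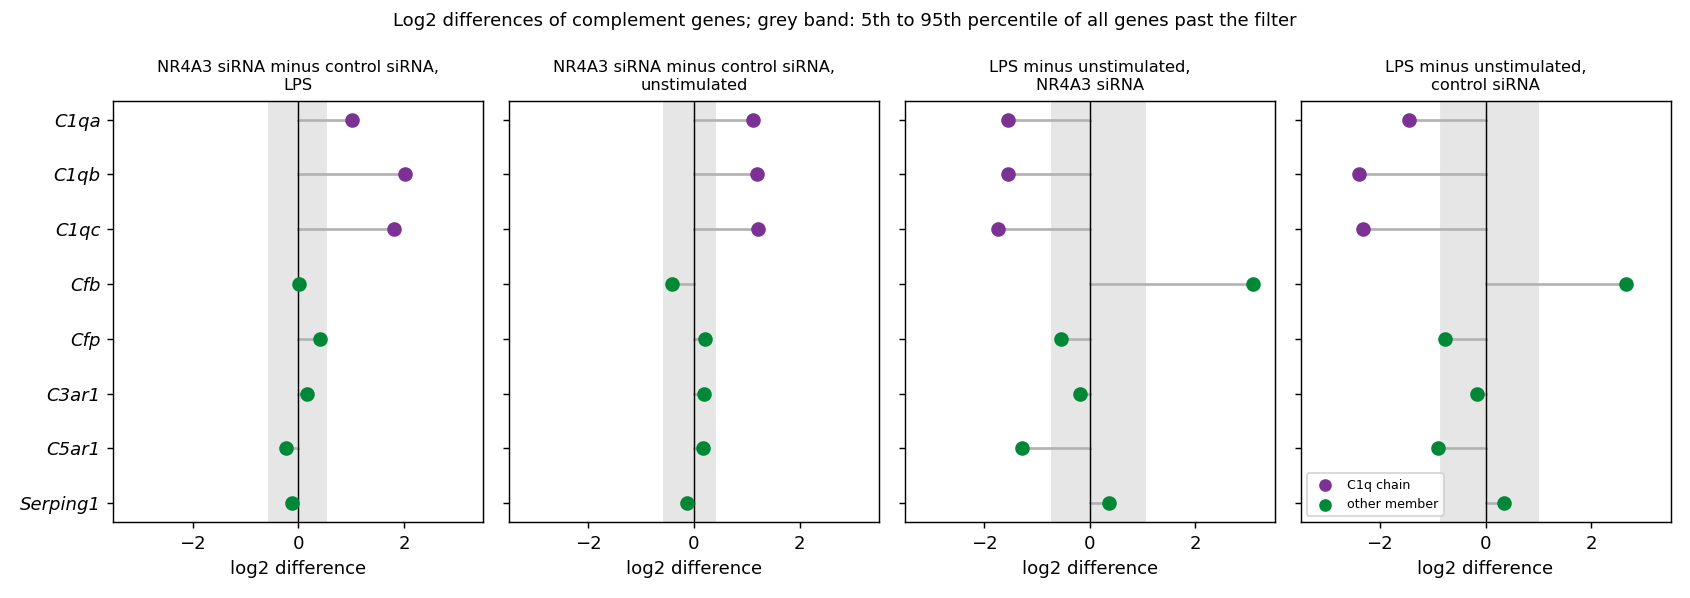
Log2 differences (horizontal axis) of the 8 measured genes in the 4 comparisons, NR4A3 minus control siRNA in the left panels and LPS minus unstimulated in the right panels, with a grey band from the 5th to the 95th percentile of all genes past the filter. C1q chains (purple) lie right of the band in both siRNA panels and left of it in both LPS panels, while of the other genes (green) Cfb and C5ar1 lie outside the band in both LPS panels.

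Among the components outside C1q, factor B had the opposite response to LPS. Cfb stood at 13.39 with NR4A3 siRNA and LPS against 10.30 with NR4A3 siRNA alone, and at 13.37 with control siRNA and LPS against 10.72 with control siRNA alone. It was 8.53-fold higher with LPS under NR4A3 siRNA, ranking 61st from the highest of 10353 genes, and 6.28-fold higher under control siRNA, 83rd of 10346. A difference of at least 1.5-fold upwards was reached by 10.3% and 10.2% of genes in these comparisons. Cfb was the 1 member higher with LPS by that measure. Between the siRNAs its difference was 0.02 under LPS, where another scaling of the arrays turned the sign (-0.03), and -0.42 without LPS.

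Properdin followed the array order of the C1q chains over a smaller range. Cfp stood at 12.81 with NR4A3 siRNA and LPS and 13.35 with NR4A3 siRNA alone, against 12.39 with control siRNA and LPS and 13.15 with control siRNA alone. With LPS it was 1.46-fold lower under NR4A3 siRNA and 1.69-fold lower under control siRNA, so the first did not reach 1.5-fold and the second did. With quantile normalization repeated over the named genes the first did too, at -0.60 on the log2 scale. Its differences between the siRNAs were 0.42 under LPS and 0.20 without. Its range over the arrays was 0.96, compared with 2.57 for C1qa, 3.55 for C1qc and 3.58 for C1qb. This order of the 4 arrays was found for 1384 of 10592 genes (13.1%), so it is common.

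The anaphylatoxin receptors differed little between the siRNAs. C3ar1 stood at 12.68 with NR4A3 siRNA and LPS and 12.85 with NR4A3 siRNA alone, against 12.51 with control siRNA and LPS and 12.67 with control siRNA alone, a range of 0.34. C5ar1 stood at 8.53 with NR4A3 siRNA and LPS and 9.82 with NR4A3 siRNA alone, against 8.75 with control siRNA and LPS and 9.65 with control siRNA alone. Both LPS arrays lay below both unstimulated arrays for C5ar1. It was 2.45-fold lower with LPS under NR4A3 siRNA (146th from the lowest of 10353) and 1.86-fold lower under control siRNA (464th of 10346). The receptors for C3a and C5a thus differed in their LPS values, at -0.18 for C3ar1 and -1.29 for C5ar1 on the log2 scale under NR4A3 siRNA, and at -0.16 and -0.90 under control siRNA.

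Serping1, the C1 inhibitor, had levels of 6.27 and 5.91 with NR4A3 siRNA with and without LPS, against 6.39 and 6.04 with control siRNA. All 4 values were below the filter, so no difference, direction or fold is given.

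The rest of the complement system was read from lists of 76 entries, covering partners of C1q in the classical pathway, the lectin, alternative and terminal pathways, regulators, receptors and C1q-binding proteins, and other proteins with a C1q domain. Of these, 69 were measured. Past the filter, with NR4A3 siRNA under LPS 2 of 21 genes were higher and 2 lower by 1.5-fold or more (median log2 difference 0.05), and 3 of 24 higher and 2 lower without LPS (median 0.05). Over all genes those sizes were reached by 3.73% upwards and 4.73% downwards under LPS, and by 1.62% and 4.69% without. With LPS against no LPS, 6 of 23 were higher and 5 lower under NR4A3 siRNA (median -0.30), beside 10.3% and 6.88% of all genes. Under control siRNA 5 of 23 were higher and 5 lower (median -0.11), beside 10.2% and 9.44% of all genes.

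The proteases that C1q carries did not follow the C1q chains. C1ra, which encodes the protease C1r, stood at 9.29 and 8.53 with NR4A3 siRNA with and without LPS, against 9.32 and 8.55 with control siRNA, so that the siRNAs differed by at most 0.03 while LPS went with levels 1.69-fold higher under NR4A3 siRNA and 1.71-fold higher under control siRNA. C1s1, which encodes C1s, stood at 7.35 and 6.22 with NR4A3 siRNA with and without LPS, against 7.83 and 7.52 with control siRNA. It was 2.47-fold lower with NR4A3 siRNA without LPS, approximately so since the lower level was below the filter, and its close relative C1s2 could share its probes. C1rl, a C1r-like protease gene, was 2.45-fold higher with LPS under NR4A3 siRNA and 2.33-fold higher under control siRNA, with siRNA differences of 0.05 and -0.03 with and without LPS. C2, C4a and C4b, the next components of the pathway, lay below the filter on all arrays. Of 8 lectin pathway genes and 7 terminal pathway genes, 2 and 1 reached the filter on any array.

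Among regulators, the values between the siRNAs went both ways. Clu (clusterin), a secreted chaperone that also restrains the terminal complex, had levels of 8.91 and 7.39 with NR4A3 siRNA with and without LPS, against 11.07 and 10.64 with control siRNA. It was 4.45-fold lower with NR4A3 siRNA under LPS and 9.45-fold lower without. Cd59a, a membrane inhibitor of the terminal complex, had levels of 8.21 and 8.35 with NR4A3 siRNA, against 7.46 and 7.41 with control siRNA, and so was 1.69-fold higher under LPS and 1.92-fold higher without. Its paralog Cd59b could share probes. Cr1l (Crry), the membrane regulator of C3 in mouse cells, had differences of -0.14 and 0.04. Susd4, a membrane regulator, was above the filter only with NR4A3 siRNA without LPS, at 7.23.

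Of 12 receptors and C1q-binding proteins, 9 were above the filter on every array, and 8 of these 9 differed by less than 1.5-fold between the siRNAs in either state. That size was reached by 3.73% of all genes upwards and 4.73% downwards under LPS, and by 1.62% and 4.69% without. Staying below it is thus common. The exception among the 9 was Cd93, a membrane protein once described as a C1q receptor. Its levels were 8.32 and 11.25 with NR4A3 siRNA with and without LPS, against 7.08 and 10.39 with control siRNA. Cd93 was 2.38-fold higher with NR4A3 siRNA under LPS and 1.82-fold higher without, and LPS went with a level 7.62-fold lower under NR4A3 siRNA and 9.95-fold lower under control siRNA. Calr (calreticulin), a binding partner of C1q on dying cells, lay between 12.54 and 12.61 on all arrays. Scarf1, an endothelial and myeloid receptor for C1q-coated cells, was 2.50-fold higher with LPS under NR4A3 siRNA and 2.26-fold higher under control siRNA. Itgam, Itgax and Itgb2, the chains of complement receptors 3 and 4, were lower with LPS by 0.22 to 0.45 under NR4A3 siRNA and by 0.33 to 0.71 under control siRNA, on the log2 scale. Lrp1, an endocytic receptor, was lower with LPS by 0.68 under NR4A3 siRNA and by 0.89 under control siRNA. C1qbp, a protein that binds the globular heads of C1q, was lower with LPS by 0.53 under NR4A3 siRNA and by 0.76 under control siRNA, so the second was past 1.5-fold.

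Genes that share only the C1q domain had other patterns. Cbln1, a secreted protein known from synapses, was 3.77-fold higher with LPS under NR4A3 siRNA and 4.18-fold higher under control siRNA, with siRNA differences of -0.14 under LPS and near 0 without. C1ql3 was above the filter on 1 array, at 7.36 with control siRNA and LPS, against 5.36 with NR4A3 siRNA and LPS. Emilin2, an extracellular matrix glycoprotein, was 1.94-fold lower with LPS under NR4A3 siRNA and 2.72-fold lower under control siRNA. C1qtnf12, a C1q/TNF-related secreted protein, was 1.89-fold lower with LPS under NR4A3 siRNA, with a log2 difference of -0.57 under control siRNA.

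**Figure D3:**
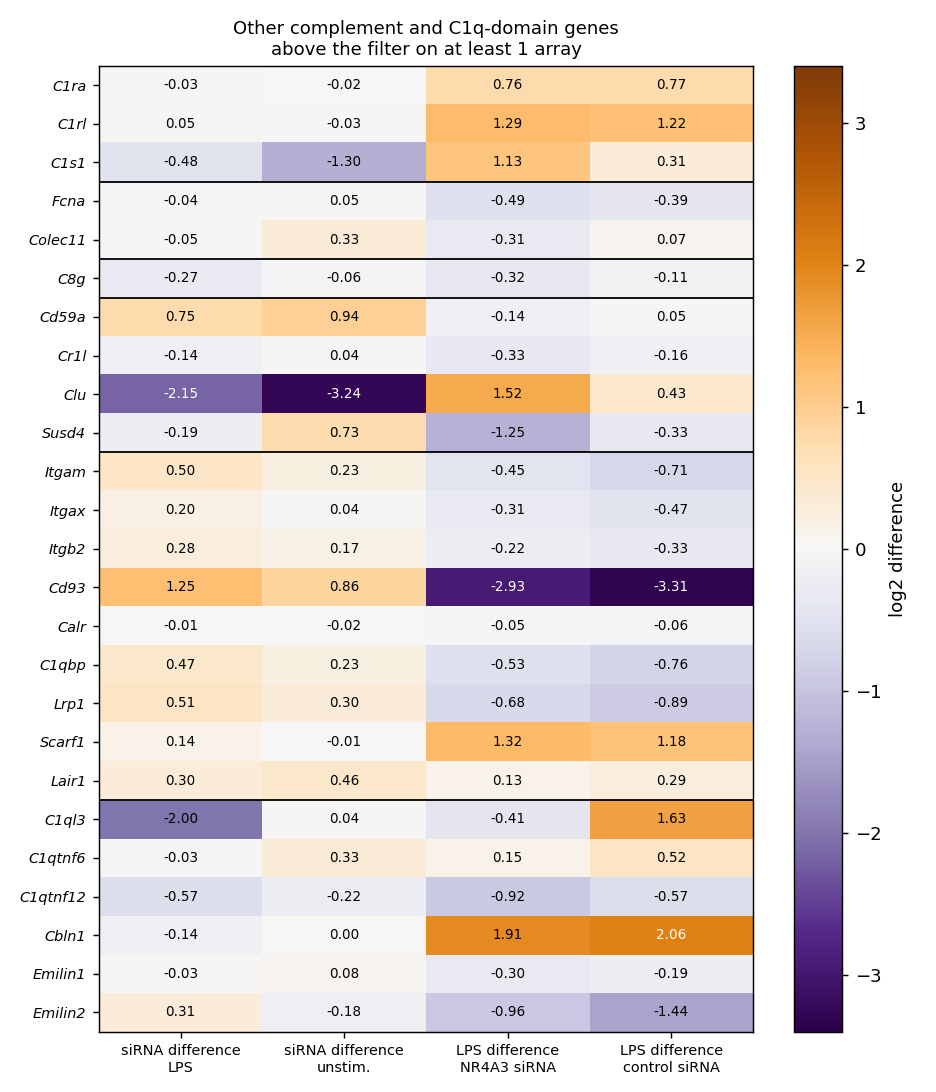
Log2 differences (colour and printed value) of the 25 other complement and C1q-domain genes above the filter on at least 1 array, with black lines between the lists and 1 column per comparison. Clu is lower and Cd93 and Cd59a are higher with NR4A3 siRNA in both states, while C1ra, C1rl, Scarf1 and Cbln1 differ mainly with LPS.

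Macrophages make C1q too, and such cultures can hold them. In RNA from whole cultures, fewer cells of a type and less RNA per cell cannot be told apart. Of 21 measured macrophage markers, 17 and 16 were above the filter with NR4A3 siRNA with and without LPS, and 17 and 16 with control siRNA. Their summed linear signal was 69010 and 69070 with NR4A3 siRNA with and without LPS, against 57130 and 61230 with control siRNA. Between the siRNAs under LPS, 3 of 18 markers past the filter were at least 1.5-fold higher and 1 lower (median 0.31), beside 3.73% and 4.73% of all genes. Without LPS 2 of 16 were higher and 0 lower (median 0.20), beside 1.62% and 4.69% of all genes. The largest siRNA differences among them were those of Ms4a7 (0.43 under LPS and 0.96 without), Slc40a1 (0.50 and 0.78) and Csf1r (0.71 and 0.17). The 3 higher markers under LPS were Csf1r, Mrc1 and Trem2, and the 1 lower was Marco (-0.64). Cd163, Folr2 and Lyve1, markers of tissue macrophages, lay below the filter on all arrays. The part of macrophage content in the C1q differences was not tested.

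Dendritic cell markers differed between the siRNAs mostly in the other direction. Of 18 measured markers, 15 and 16 were above the filter with NR4A3 siRNA with and without LPS, and 15 and 16 with control siRNA, Flt3 and Xcr1 being below it throughout. Their summed linear signal was 50340 and 41190 with NR4A3 siRNA with and without LPS, against 70250 and 55820 with control siRNA. Under LPS 6 of 15 had levels with NR4A3 siRNA that were lower by 1.5-fold or more and 1 a higher level (median -0.32), beside 4.73% and 3.73% of all genes. Without LPS 6 of 16 were lower and 1 higher (median -0.15), beside 4.69% and 1.62% of all genes. The largest differences were those of the maturation genes Ccr7 (-0.74 under LPS and -3.53 without), Fscn1 (-0.66 and -3.29) and Cd83 (-1.73 and -2.65). The 1 higher marker was Clec9a under LPS (0.78) and Cd209a without LPS (1.97). Itgax and Cd74 differed by at most 0.20 between the siRNAs. The part of these shifts in the C1q values was not tested. B cell, T cell, NK cell and erythroid markers were below the filter on all arrays, and so were all but 1 of 10 neutrophil, 8 mast cell and basophil, and 5 eosinophil markers each, the exceptions being S100a8, Kit and Siglecf. Of 6 plasmacytoid dendritic cell markers, 3 reached it. The 7 measured monocyte markers had a summed linear signal of 11450 and 4559 with NR4A3 siRNA with and without LPS, against 12420 and 4821 with control siRNA. Most of the sum with LPS was Ms4a4c, 84.9-fold higher with LPS under NR4A3 siRNA and 73.9-fold higher under control siRNA. Between the siRNAs under LPS, 0 of 6 past the filter were at least 1.5-fold higher and 2 lower (median -0.14), beside 3.73% and 4.73% of all genes. Without LPS 0 of 6 were higher and 0 lower (median -0.14), beside 1.62% and 4.69%. The largest siRNA differences were those of Plac8 (-1.26 under LPS and -0.12 without), Vcan (-0.87 and -0.34) and F13a1 (-0.27 and -0.51). With LPS against no LPS, 3 of 7 monocyte markers were at least 1.5-fold higher and 3 lower under NR4A3 siRNA, beside 10.3% and 6.88% of all genes. Under control siRNA 3 of 6 past the filter were higher and 2 lower, beside 10.2% and 9.44% of all genes.

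The genes whose profile lay closest to that of the C1q chains were found over 10134 genes above the filter on at least 1 array. Likeness was the root-mean-square distance, on the log2 scale over the 4 arrays, between a gene's levels centred on their own mean and the mean centred profile of the 3 chains. Between single chains, C1qb and C1qc lay 0.08 apart, and C1qa lay 0.43 from C1qb and 0.39 from C1qc. From the mean of the chains, C1qc lay 0.12, C1qb 0.16 and C1qa 0.27. The other genes nearest to that mean were Slc36a2 (0.22), an amino acid transporter, Galnt9 (0.24), an enzyme of O-linked glycosylation, and Snap25 (0.27), a vesicle fusion protein. Slc36a2 and Galnt9 thus lay nearer to the mean of the chains than C1qa did. Tmem154 (0.29), the antisense transcript Dnmt3aos (0.30), the galactose-type lectin Mgl2 (0.32), Eepd1 (0.34) and the platelet-type chemokine Ppbp (0.34) came next. The distance of a gene past the filter had a median of 1.15. The other complement members lay farther off, Cfp at 0.81, C5ar1 at 0.83, C3ar1 at 1.04, Serping1 at 1.34 and Cfb at 2.49. With only 4 arrays such a profile has few degrees of freedom, and the order of near neighbours is a description of these arrays.

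**Figure D4:**
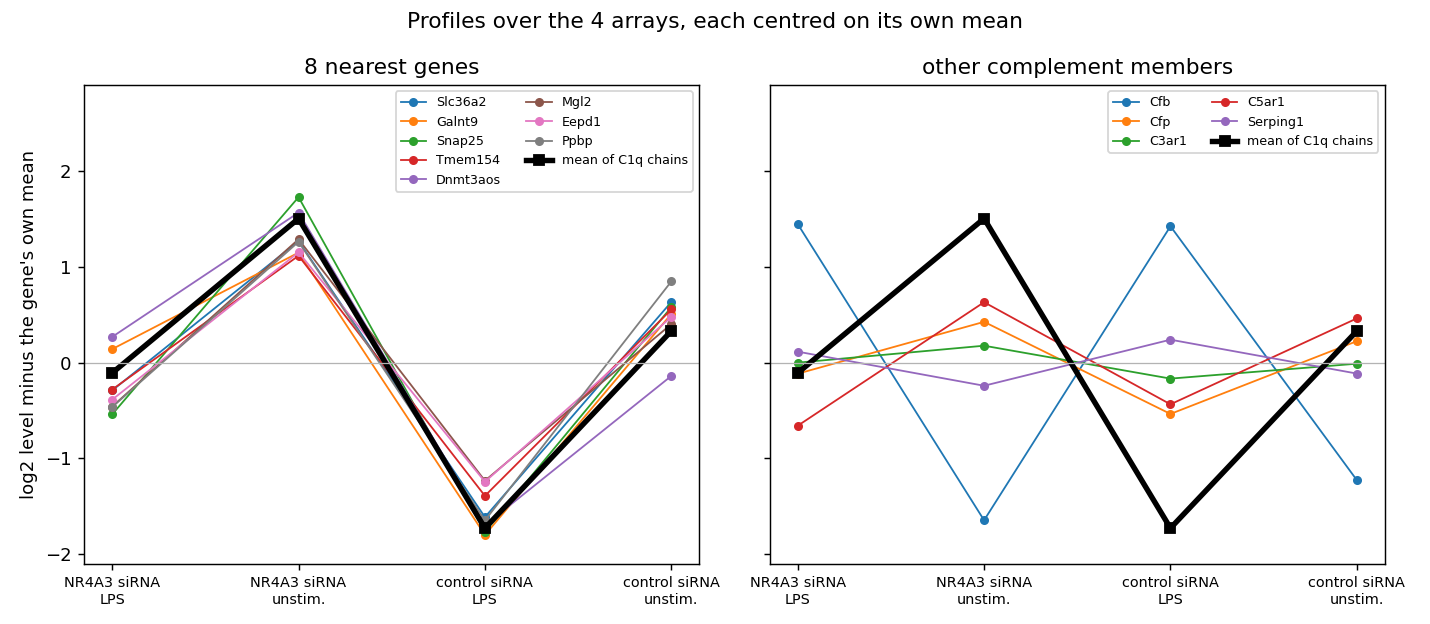
Levels over the 4 arrays (horizontal axis), each centred on the gene's own mean (log2, vertical axis), with the mean of the C1q chains in black, for the 8 nearest genes (left) and the other measured complement genes (right). The nearest genes stay within a distance of 0.34 of the C1q mean, while Cfb runs opposite to it at 2.49.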

How the data were processed

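Total RNA was hybridised to Affymetrix Mouse Gene 1.0 ST arrays, 1 for each of 4 conditions. The authors deposited log2 values from RMA, quantile-normalized per the labels, and Affymetrix Expression Console 1.1 is named in the submitters' processing notes. Genome build and filters before deposit: not given in the sources used here. After quantile normalization a shift shared by most genes would not show.

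Of 28856 probe sets, 21789 had 1 gene symbol in the platform annotation, 1621 had several and 5446 had none here. Genes (19938) were taken at the brightest probe set, and each measured complement gene had 1. Differences are between 2 arrays, and folds are powers of 2. Counts used 1.5-fold and the filter at 6.66. With 1 array per condition a pair of arrays has no residual degrees of freedom. An average effect over 4 arrays could be fitted, but the members were chosen with their values known, so none is given. Members and lists were chosen with earlier results of these data known.

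Genes named are the members, listed complement genes past the filter and 1.5-fold or of the first step of the cascade, the 3 markers per discussed list with the largest siRNA difference, and the 8 nearest profiles, leaving out gene models, clones and similar symbols. C2, C4a, C4b, C1s2, Calr, Cr1l, Itgax, Itgb2, Npepl1 and Cd74 were added after their values were seen. So were Cd209a, Clec9a, Irf8, H2-Ab1, H2-Aa, Marco, Mrc1, Trem2, Ms4a4c and genes named as below the filter or as near copies. Counting was tested on simulated data. Alternatives were array scaling (median, quantile and cyclic loess, limma 3.58.1 in R 4.3.3), the probe set rule, the filter and the fold. Python 3.11.15 and pandas 2.3.3 were used.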

Additional observations from a re-analysis of the deposited data

Results flagged for a closer look

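Cfb and C5ar1 had siRNA differences of opposite sign in the 2 states. For Cfb the log2 difference of NR4A3 minus control siRNA was 0.0234 with LPS and -0.419 without. For C5ar1 it was -0.2239 with LPS and 0.1691 without. Each value comes from 1 pair of arrays, none reached 1.5-fold, and the difference between the states was not tested. Dixon's outlier test was not run, since each condition has 1 array.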

How the results depend on the processing

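Of 32 pairs of measured member and comparison, 17 reached 1.5-fold past the filter, and 0 of these changed sign or lost the call under the 3 scalings or when probe sets of a gene were averaged, which alters nothing for these genes with 1 probe set each. The only sign change was that of Cfb between the siRNAs under LPS. Cfp gained a call under repeated quantile normalization (lower with LPS under NR4A3 siRNA, -0.60 against -0.54 as deposited), so that 5 members in place of 4 were lower there. The median of the C1q chains ranged over these alternatives from 1.75 to 1.82 (siRNA, LPS), 1.17 to 1.19 (siRNA, no LPS), -1.65 to -1.54 (LPS, NR4A3 siRNA) and -2.33 to -2.30 (LPS, control siRNA), and the median difference of their LPS effects from 0.51 to 0.60. These last alternatives were chosen after seeing the data. With no replicates, a median was said to move when it shifted by more than the median size of that comparison over genes (0.15 to 0.23), and none did.

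The fold threshold changed counts of members. At 3-fold, 0 members were higher with NR4A3 siRNA without LPS (3 at 1.5-fold) and 1 was lower with LPS under NR4A3 siRNA (4 at 1.5-fold). Under control siRNA, 3 members were lower with LPS at 2-fold and 2 at 3-fold (5 at 1.5-fold). Over all genes, those higher and lower with NR4A3 siRNA at 1.5-, 2- and 3-fold numbered 381 and 483, 48 and 171, and 7 and 44 under LPS, and 166 and 481, 21 and 176, and 5 and 63 without. Those higher and lower with LPS numbered 1070 and 712, 550 and 281, and 278 and 80 under NR4A3 siRNA, and 1058 and 977, 517 and 396, and 260 and 122 under control siRNA. With the filter at the 75th percentile of 8.67 and 1.5-fold, 230 were higher with NR4A3 siRNA under LPS, 92 higher and 274 lower without, and 441 and 579 were lower with LPS under NR4A3 and control siRNA. Of the members, 2 in place of 3 were then higher with NR4A3 siRNA under LPS. Those lower with LPS under control siRNA numbered 4 in place of 5. C1qa, at 8.04 or less on the arrays of these comparisons, dropped out of both. Fewer genes are counted there by construction.

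No paired analysis was possible because each condition has 1 array and the labels carry no replicate numbers and leaving out an array leaves its condition with none. Levels near the filter, such as C1qa with control siRNA and LPS, limit the precision of their folds.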
